A study of Mus musculus with 6 samples.

Results

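Amino acid transporters were described in liver tissue of the inbred mouse strain C57BL/6, from animals kept for 2 days on a high fat diet (HFD) or on regular diet (RD). A gene was a member if its symbol in the platform annotation named a numbered gene of the solute carrier families SLC1, SLC3, SLC6, SLC7, SLC36, SLC38 or SLC43, with Slc7a11 left out. By this rule 59 of the 19938 genes measured were members, read by 61 probe sets, and the brightest probe set stood for each gene. The 6 arrays were 3 of HFD and 3 of RD, described as biological replicates, with food given ad libitum and total RNA taken from frozen tissue. Every title also holds the unexplained letters NI. Age, sex, the make-up of the diets and whether a sample was 1 mouse or a pool were not known here. The values are log2 signals, so a difference of 1 is a change of 2-fold, and each difference is HFD minus RD.

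Amino acids are charged or polar and cross membranes through carrier proteins. Sodium coupled carriers of SLC1, SLC6 and SLC38 concentrate amino acids inside the cell, exchangers of SLC7 trade an amino acid inside for another outside, and SLC43 carriers let large neutral amino acids move down their gradient. Most SLC7 exchangers work only when bound to a heavy chain of the SLC3 family, which takes the complex to the plasma membrane. In the liver such carriers supply urea synthesis, gluconeogenesis, protein and glutathione synthesis, and the conjugation of bile acids with taurine or glycine. The list is wider than its name, since Slc6a2, Slc6a3 and Slc6a4 carry monoamine transmitters, Slc6a8 carries creatine and Slc43a3 carries nucleobases.

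After HFD, 7 of the 59 genes rose and 3 fell (limma, Benjamini-Hochberg adjusted p under 0.05 over all genes). The rises, from large to small, were those of the taurine transporter Slc6a6, the neutral exchanger Slc1a4, the exchanger light chain Slc7a7, the heavy chain Slc3a1, the light chain Slc7a8, the glycine transporter Slc6a9 and the taurine and GABA transporter Slc6a13. The large neutral amino acid carrier Slc43a1, the betaine and GABA transporter Slc6a12 and the orphan Slc6a16 fell. These 10 genes are 16.9% of the members, where 5.35% of all genes passed the same test. Among all genes 3.11% rose and 2.24% fell.

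The changes ran both ways, and 49 of the 59 members did not pass. The median difference over the 59 members was -0.01, beside -0.003 over all genes, and the differences ran from -0.97 to 0.76. An unadjusted p under 0.05 was reached by 18 members, or 30.5%, where 19.7% of all genes reached it. The HFD and RD values did not overlap for 23 members, or 39.0%, where 25.7% of all genes showed no overlap; 12 of the 23 were higher and 11 lower in HFD.

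**Figure D1:**
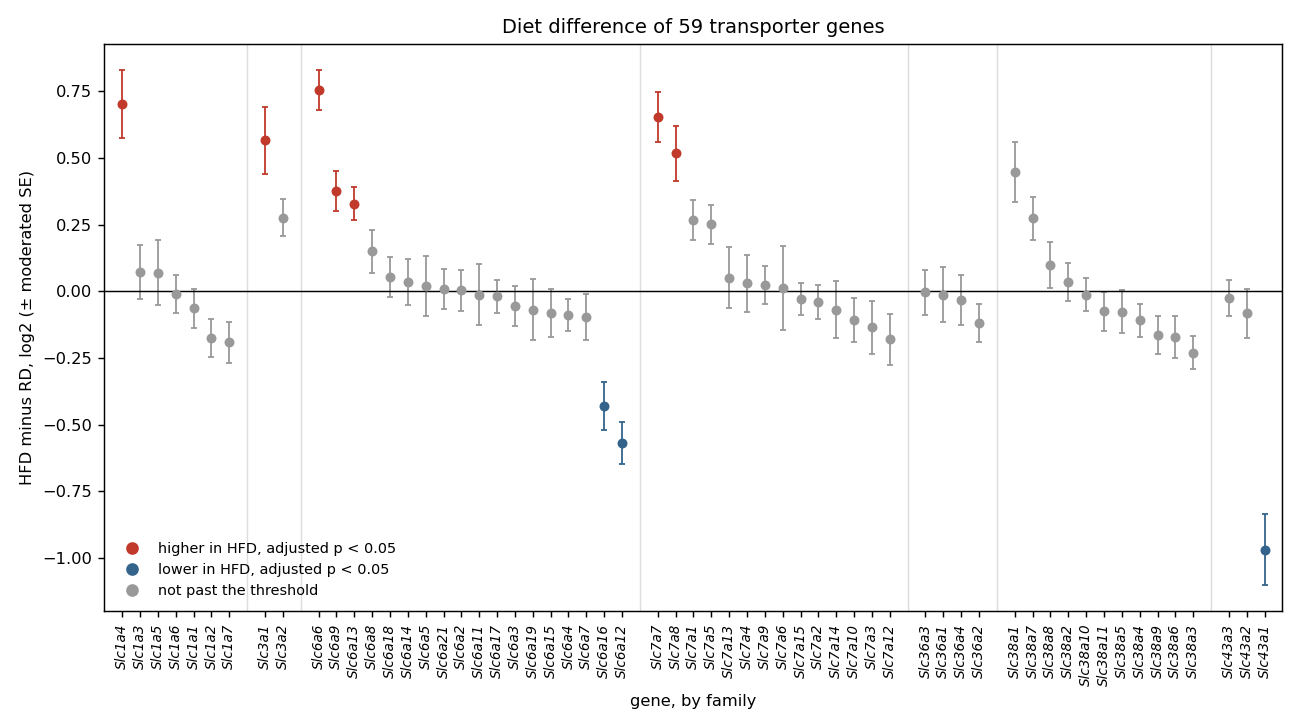
Difference HFD minus RD on the log2 scale for each of the 59 genes (points) with its moderated standard error (bars), ordered by size within each family; red points rose, blue points fell and grey points did not pass an adjusted p of 0.05. The SLC6 family holds 5 of the 10 coloured points, and no gene of SLC36 or SLC38 is coloured.

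The counts of calls were smaller with 1 array left out, over all genes as well as over the members. In these fits, 4, 2 and 4 members rose without HFD replicate 1, 2 or 3, and 3 rose without each single RD array. The count of falls was 2, 2 and 3 without HFD replicate 1, 2 or 3 and 2 without each single RD array. Over all genes, 197 to 371 rose and 178 to 273 fell in the same fits, against 621 and 446 with all 6 arrays. Slc6a6, Slc7a7, Slc6a12 and Slc43a1 passed with any 1 array left out, and the other 6 genes did not.

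**Figure D2:**
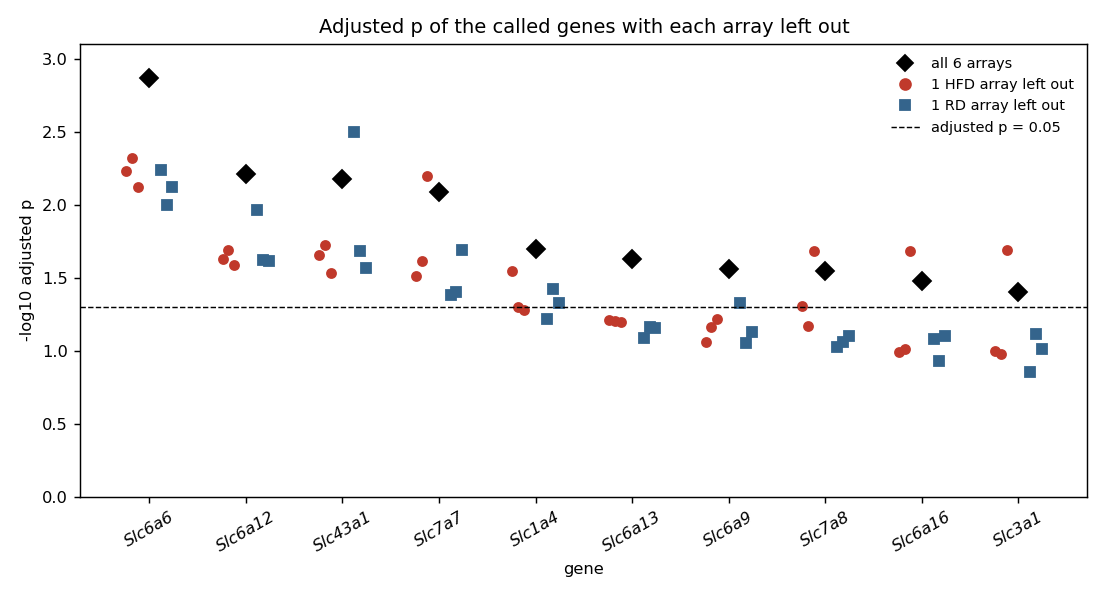
Minus log10 of the adjusted p (vertical axis) for the 10 genes that passed, with all 6 arrays (black diamonds), 1 HFD array left out (red circles) or 1 RD array left out (blue squares); the dashed line is an adjusted p of 0.05. Every symbol of Slc6a6, Slc6a12, Slc43a1 and Slc7a7 lies above the line, while all 6 of the smaller symbols of Slc6a13 lie below it.

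The tissue label was checked against markers. All 8 hepatocyte markers measured had mean log2 signals between 13.71 and 14.42. Some markers of other liver cells moved with the diet. Of 8 Kupffer cell markers (the resident macrophages), 4 rose, Adgre1, Cd5l, Marco and Timd4, and 7 of the 8 differences were positive. The median over the 8 was 0.48, and the sum of their linear signals was 10897 to 14718 in HFD and 9269 to 9790 in RD. Marco had the lowest mean log2 signal of the 8, 7.06. This lies at the medians of the arrays over all probe sets (7.06 to 7.11) and below the median of all genes. All 4 bile duct markers measured (Krt19, Krt7, Epcam and Sox9) rose, with a median of 0.44. Their sums were 1142 to 1300 in HFD and 841 to 931 in RD. The lowest mean log2 signal of the 4 was 6.43, below the medians of the arrays. Of 5 markers of monocytes and neutrophils 1 rose (Lyz2). None of the markers of endothelium, stellate cells, lymphocytes, adipocytes or exocrine pancreas passed in limma. At an unadjusted p under 0.05 were 1 of endothelium and 1 of exocrine pancreas. Sums of linear signals were higher in HFD without overlap for monocytes and neutrophils (2128 to 2932 against 1511 to 1619). So were those of endothelium (11865 to 13382 against 11132 to 11702) and stellate cells (11003 to 11659 against 10099 to 10868). Such sums weigh the brightest markers most. The median differences of these 3 lists were 0.23, 0.09 and 0.03 in the same order. Positive differences were 4 of 5, 4 of 6 and 4 of 6. For hepatocytes, lymphocytes, adipocytes and exocrine pancreas the sums overlapped. In whole liver, more cells of a type and more RNA per cell cannot be told apart. The part of these cells in the transporter results was not tested.

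Among the carriers of GABA, betaine, taurine and creatine, 2 of 5 rose and 1 fell. Slc6a6 encodes the sodium and chloride coupled taurine transporter, and taurine is the amine that mouse liver joins to most of its bile acids. Its log2 signals (probe set 10540122) were 12.24, 12.08 and 12.15 in HFD, against 11.49, 11.34 and 11.36 in RD. The lowest HFD value stood well above the highest RD value, and the arrays of a diet lay close together. Slc6a6 rose by 0.76 ± 0.07 (moderated SE), or 1.69-fold (limma adjusted p = 0.00136). With 1 array left out the difference lay between 0.71 and 0.80 and the adjusted p between 0.00482 and 0.0100.

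Slc6a13 and Slc6a12, adjacent genes on chromosome 6 with no protein coding gene between them, moved in opposite directions. Slc6a13 encodes a GABA transporter that also carries taurine and is known in periportal hepatocytes of the mouse. Its signals (probe set 10541318) were 13.56, 13.56 and 13.63 in HFD, against 13.26, 13.28 and 13.22 in RD. The groups did not overlap, but the change was small, at 0.33 ± 0.06 or 1.26-fold (limma adjusted p = 0.0235). With any 1 array left out the adjusted p was between 0.0613 and 0.0823, above the threshold, at differences of 0.31 to 0.34.

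Slc6a12 encodes the transporter of betaine and GABA, which brings in betaine, a methyl donor and an osmolyte. It was measured (probe set 10541333) at 11.94, 11.98 and 11.91 in HFD, against 12.39, 12.63 and 12.51 in RD. The HFD values were nearly equal and all lay below the RD values. Slc6a12 fell by 0.57 ± 0.08 on the log2 scale, or 1.48-fold lower (limma adjusted p = 0.00617; at most 0.0259 with 1 array left out). The creatine transporter Slc6a8 averaged 9.34 ± 0.11 in HFD and 9.19 ± 0.09 in RD (SD, n = 3 each), and the groups overlapped (limma adjusted p = 0.365).

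The promoter windows of this adjacent pair are shown because the genes are neighbours with opposite changes. Each is the most upstream start of its gene in RefSeq (GRCm38.p6), from 250 bases before the start to 50 bases after it, 5′ to 3′, on the + strand, with CG dinucleotides in capitals. The Slc6a13 window lies at chr6:121300038-121300337 and the Slc6a12 window at chr6:121342324-121342623.
Slc6a13: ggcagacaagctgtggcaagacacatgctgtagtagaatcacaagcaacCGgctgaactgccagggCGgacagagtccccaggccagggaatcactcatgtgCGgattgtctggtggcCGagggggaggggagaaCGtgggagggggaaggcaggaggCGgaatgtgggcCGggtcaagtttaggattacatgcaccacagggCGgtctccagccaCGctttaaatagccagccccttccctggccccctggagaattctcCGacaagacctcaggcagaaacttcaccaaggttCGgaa
Slc6a12: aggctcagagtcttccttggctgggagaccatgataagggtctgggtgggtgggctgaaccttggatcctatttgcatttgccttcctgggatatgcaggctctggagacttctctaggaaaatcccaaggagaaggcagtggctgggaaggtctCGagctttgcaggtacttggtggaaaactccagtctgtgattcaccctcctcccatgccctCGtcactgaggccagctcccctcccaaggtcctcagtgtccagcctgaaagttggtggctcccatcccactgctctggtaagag
The window of Slc6a13 held 11 CG dinucleotides and that of Slc6a12 held 2. RefSeq has other starts for both genes, and their windows overlap in CG count: the further 2 windows of Slc6a13 held 7 and 2, and the further 4 of Slc6a12 held 2, 5, 5 and 3. Over the most upstream windows of all 27025 genes in the table the median was 7, and over the 42 members with a window it was 15.5.

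Of the glycine and proline carriers 1 of 3 rose. Slc6a9 encodes the glycine transporter GlyT1, and glycine is a precursor of glutathione and of creatine. Its signals (probe set 10507500) were 13.11, 13.03 and 13.02 in HFD, against 12.78, 12.68 and 12.57 in RD. There was no overlap, and the rise was 0.38 ± 0.07, or 1.30-fold (limma adjusted p = 0.0278). With 1 array left out it passed only without RD replicate 1 (adjusted p = 0.0470), and the adjusted p reached 0.0893.

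Elsewhere in SLC6, 1 of 7 neutral amino acid carriers and orphans fell, and 0 of 3 monoamine carriers passed in limma, also 0 at an unadjusted p under 0.05. The orphan Slc6a16, whose substrate is not known, had signals (probe set 10552888) of 6.86, 6.84 and 7.11 in HFD, against 7.30, 7.45 and 7.35 in RD. It fell by 0.43 ± 0.09 on the log2 scale, or 1.35-fold lower (limma adjusted p = 0.0332), and of the fits without 1 array it passed only in that without HFD replicate 3 (0.117 was the highest adjusted p). Its mean signal lies below the median of all genes and detection calls were not used here, so the share of background in it is not known. Slc6a21, the adjacent gene on chromosome 7 and chosen for its position, differed by 0.01 ± 0.08.

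**Figure D3:**
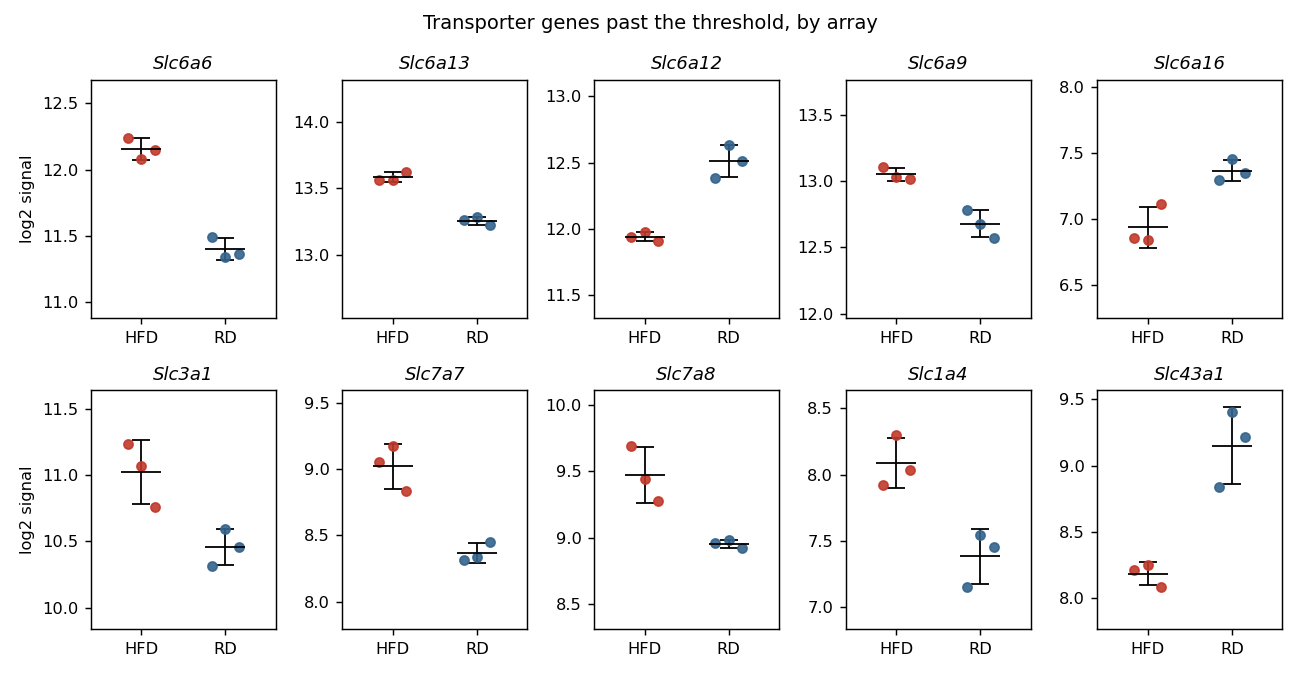
Log2 signal of each array (points) with the mean and SD (bars, n = 3) for the 10 genes that passed, HFD in red left of RD in blue; each panel spans the same log2 range. In every panel the 3 HFD values lie apart from the 3 RD values, higher for 7 genes and lower for Slc6a12, Slc6a16 and Slc43a1.

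In the heteromeric exchangers, 1 of 2 heavy chains and 2 of 9 light chains rose, and none fell. Slc7a7 encodes y+LAT1, a light chain that pairs with the heavy chain Slc3a2, exports arginine and lysine in exchange for neutral amino acids and sodium, and is known in macrophages, gut and kidney. It was measured (probe set 10419744) at 9.05, 9.17 and 8.84 in HFD, against 8.31, 8.34 and 8.45 in RD. Even the lowest HFD value was above every RD value. Slc7a7 rose by 0.65 ± 0.09, or 1.57-fold (limma adjusted p = 0.00820; at most 0.0417 with 1 array left out). Of the 8 Kupffer cell markers given above, 4 rose in the same arrays and 7 differences were positive, with a median of 0.48. Their part in the rise of Slc7a7 was not tested.

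Slc7a8 encodes LAT2, another light chain of Slc3a2, which exchanges neutral amino acids both small and large. Its signals (probe set 10419854) were 9.69, 9.44 and 9.28 in HFD, against 8.96, 8.98 and 8.92 in RD. The RD values were tight, the HFD values spread over a wider range above them, and HFD replicate 1 was highest. The rise was 0.52 ± 0.10, or 1.43-fold (limma adjusted p = 0.0284). It was lost without HFD replicate 2 or any single RD array (adjusted p up to 0.0946), while without HFD replicate 1 the difference was 0.41 (adjusted p = 0.0494). Slc7a7 and Slc7a8 lie on chromosome 14 with 15 protein coding genes between them.

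The heavy chain Slc3a1 (rBAT), which in kidney and gut pairs with Slc7a9 to take up cystine and cationic amino acids, was measured (probe set 10447264) at 11.24, 11.07 and 10.76 in HFD, against 10.32, 10.59 and 10.46 in RD. The groups were separate but each was spread, and Slc3a1 rose by 0.57 ± 0.13, or 1.48-fold (limma adjusted p = 0.0399). Of the fits without 1 array, the call held only in that without HFD replicate 3 (0.140 was the highest adjusted p). Its partner Slc7a9 had signals of 6.27, 6.14 and 6.29 in HFD, against 6.17, 6.27 and 6.20 in RD, which overlapped (limma adjusted p = 0.893). The heavy chain changed in these arrays and the light chain Slc7a9 gave no call, and the difference between the 2 changes was not tested. The mean signal of Slc7a9, 6.22, lies below the medians of the arrays (7.06 to 7.11). Without detection calls the share of background in it is not known.

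Slc3a2 (4F2hc), the heavy chain of Slc7a5 to Slc7a8, came close to the threshold. Its signals (probe set 10465772) were 12.47, 12.46 and 12.36 in HFD, against 12.08, 12.17 and 12.21 in RD, with no overlap. The difference was 0.28 ± 0.07, or 1.21-fold, and did not pass (limma adjusted p = 0.0587), although it passed after quantile normalization (adjusted p = 0.0362), among the brighter genes (adjusted p = 0.0250) and with an intensity trend (adjusted p = 0.0127). The light chain Slc7a5 (LAT1), which imports leucine and other large neutral amino acids, had 9.46, 9.28 and 9.33 in HFD, against 9.16, 9.08 and 9.07 in RD. These values did not overlap either, and the difference of 0.25 ± 0.07 did not pass (limma adjusted p = 0.0949; 0.0437 among the brighter genes). Slc7a6 (y+LAT2) averaged 6.87 ± 0.20 in HFD and 6.86 ± 0.31 in RD (SD, n = 3 each) and overlapped. Both means lie below the medians of the arrays.

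**Figure D4:**
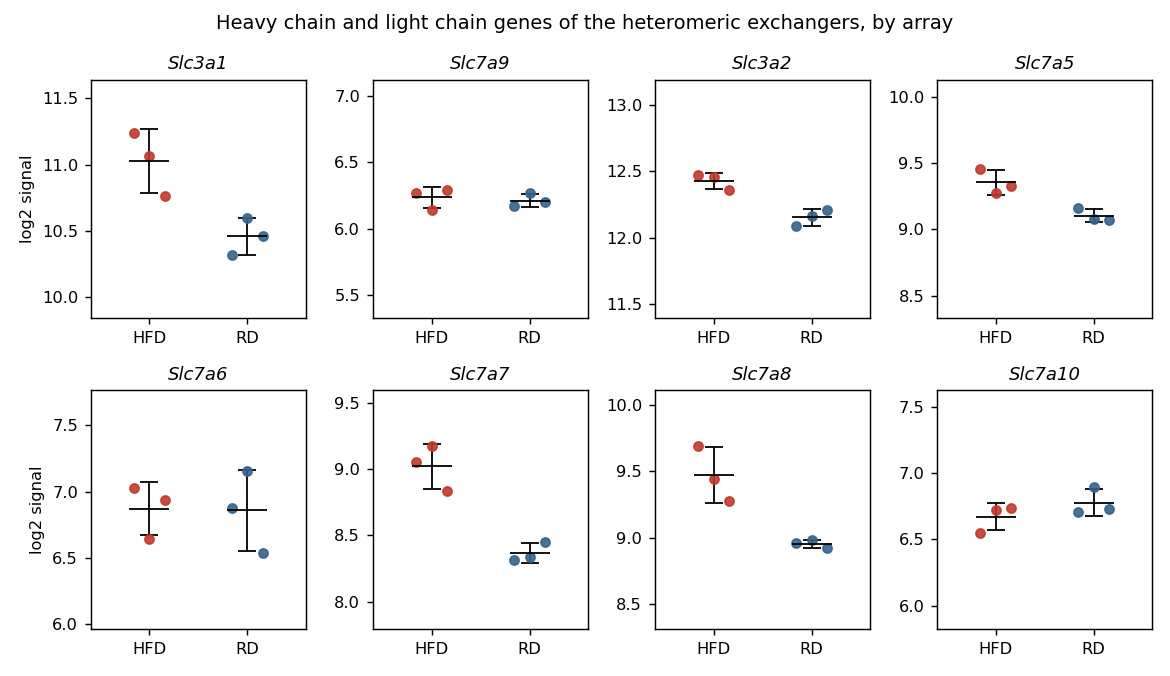
Log2 signal of each array (points) with the mean and SD (bars, n = 3) for heavy chains Slc3a1 and Slc3a2 and 6 light chains, HFD in red left of RD in blue, on axes of equal log2 span. Slc3a1, Slc3a2, Slc7a5, Slc7a7 and Slc7a8 show separate groups, with Slc3a2 and Slc7a5 not past the threshold, while Slc7a6, Slc7a9 and Slc7a10 overlap.

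None of the 5 cationic amino acid transporters and relatives, which work without a heavy chain, passed in limma, and 1 had an unadjusted p under 0.05. Slc7a1 (CAT-1), the widespread arginine and lysine transporter, had 8.05, 8.04 and 8.13 in HFD, against 7.92, 7.77 and 7.72 in RD. The groups were separate, and the difference of 0.27 ± 0.08 did not pass (limma adjusted p = 0.0858; 0.0401 among the brighter genes). Slc7a2 (CAT-2), whose low affinity isoform is the form known in liver, had 13.07, 13.06 and 13.01 in HFD, against 13.02, 13.10 and 13.14 in RD. Those values overlapped, with a difference of -0.04 ± 0.07.

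Of the 7 SLC1 genes 1 rose and 0 fell. Slc1a4 encodes ASCT1, an exchanger of alanine, serine, cysteine and threonine. Its signals (probe set 10384539) were 7.92, 8.30 and 8.04 in HFD, against 7.15, 7.55 and 7.45 in RD. Spread within each diet was large, yet the groups stayed apart, and Slc1a4 rose by 0.70 ± 0.13, or 1.63-fold (limma adjusted p = 0.0200). The call was lost in 3 of the 6 fits without 1 array. Its adjusted p was 0.05, at the threshold, without HFD replicate 2. It was 0.0526 without HFD replicate 3 and 0.0608 without RD replicate 1. Slc1a5 (ASCT2), the related glutamine exchanger, had 7.81, 7.56 and 7.31 in HFD, against 7.49, 7.58 and 7.40 in RD, and the HFD values spanned those of RD.

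The glutamate transporters gave 0 calls in 5 genes (limma), with 2 at an unadjusted p under 0.05. Slc1a2 (GLT-1), which in liver is known from the pericentral hepatocytes that make glutamine, had 11.78, 11.60 and 11.67 in HFD, against 11.83, 11.88 and 11.88 in RD. All HFD values were lower, and the difference of -0.18 ± 0.07 did not pass (limma adjusted p = 0.213). Slc1a7, known as a retinal glutamate transporter, had 6.17, 6.30 and 6.34 in HFD, against 6.52, 6.49 and 6.37 in RD. Its difference of -0.19 ± 0.08 did not pass (limma adjusted p = 0.209). The mean signal of Slc1a7, 6.37, lies below the medians of the arrays (7.06 to 7.11). Without detection calls the share of background in it is not known.

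Promoters were searched for TGATGNAA on both strands, the core of the C/EBP-ATF response element, to which ATF4 binds in genes of the amino acid response. RefSeq (GRCm38.p6) windows were given for 42 of the 59 members, and 3 of the 42 held the letters, or 7.14%, beside 4.51% of all 27025 genes with a window. By window, of which a gene can have several, it was 4 of 63 for the members and 3.97% of all 32851. Of these 4, 2 are overlapping windows of Slc7a7 that share 1 match. The holders were Slc1a4, Slc7a7 and Slc6a21, of which the first pair rose; 2 of 6 risers with a window held the letters, 0 of 3 genes that fell, and 1 of 33 others. The windows of that pair, on the - strand, are printed 5′ to 3′ with the matches in capitals, at chr11:20332664-20332963 for Slc1a4 and chr14:54417895-54418194 for Slc7a7.
Slc1a4: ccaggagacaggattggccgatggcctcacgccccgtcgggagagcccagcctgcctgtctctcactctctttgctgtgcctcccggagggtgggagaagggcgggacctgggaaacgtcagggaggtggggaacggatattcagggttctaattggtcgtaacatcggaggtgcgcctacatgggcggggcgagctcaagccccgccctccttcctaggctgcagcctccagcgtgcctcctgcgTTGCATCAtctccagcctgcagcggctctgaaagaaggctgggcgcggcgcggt
Slc7a7: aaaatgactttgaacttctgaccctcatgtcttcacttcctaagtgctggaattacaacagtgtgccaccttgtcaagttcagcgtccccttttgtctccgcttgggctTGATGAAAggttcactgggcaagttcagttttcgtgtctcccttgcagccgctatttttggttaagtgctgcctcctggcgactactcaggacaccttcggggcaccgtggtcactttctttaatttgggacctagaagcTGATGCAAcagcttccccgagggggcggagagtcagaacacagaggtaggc
In Slc1a4 the match, read from the opposite strand, begins at base 247 of the window, and the start site follows its first 250 bases. In Slc7a7, whose window is 1 of 5 for that gene, matches begin at bases 110 and 250 and do not overlap. A match of letters is a description and shows no binding.

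Among the 11 SLC38 genes, sodium coupled carriers of small neutral amino acids and glutamine, 0 passed in limma, and 3 had an unadjusted p under 0.05. Slc38a3 (SNAT3), the system N carrier of glutamine, histidine and asparagine, had 13.85, 13.83 and 13.81 in HFD, against 14.11, 14.04 and 14.03 in RD. Values within a diet were nearly equal and HFD was lower throughout. The difference of -0.23 ± 0.06 did not pass (limma adjusted p = 0.0758), but passed among the brighter genes (adjusted p = 0.0279) and with an intensity trend (adjusted p = 0.00497).

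Of the system A carriers, Slc38a1 (SNAT1) had 7.55, 7.14 and 7.28 in HFD, against 6.79, 7.02 and 6.81 in RD. The groups were apart, and the difference of 0.45 ± 0.11 did not pass (limma adjusted p = 0.0611; 0.0416 with an intensity trend). Its dimmer probe set (10431872) gave a smaller difference, 0.12 ± 0.07. The brighter one, with a mean signal of 7.10, lies below the median of all genes. Slc38a2 (SNAT2), a carrier whose mRNA is known to rise when amino acids are scarce, had 12.88, 12.86 and 12.95 in HFD, against 12.94, 12.87 and 12.77 in RD, which overlapped. Slc38a4 (SNAT4), a carrier known from liver, had 13.76, 13.77 and 13.79 in HFD, against 13.85, 13.88 and 13.91 in RD. All its HFD values were lower, by only 0.11 ± 0.06 on average (limma adjusted p = 0.376). Slc38a1, Slc38a2 and Slc38a4 are consecutive genes on chromosome 15, and their differences were 0.45, 0.04 and -0.11.

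Lysosomal members of SLC38 differed in sign. Slc38a7 (SNAT7), which exports glutamine from lysosomes, averaged 10.13 ± 0.10 in HFD and 9.86 ± 0.10 in RD (SD, n = 3 each), with no overlap and no call (limma adjusted p = 0.101). Slc38a9, the arginine sensor upstream of mTORC1, averaged 9.60 ± 0.05 in HFD and 9.76 ± 0.09 in RD (SD, n = 3 each), again with no overlap and no call (limma adjusted p = 0.256). Its probe sets gave -0.16 ± 0.07 and -0.17 ± 0.08.

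The 4 proton coupled carriers of SLC36 gave 0 calls in limma and 0 at an unadjusted p under 0.05, with differences from -0.12 to -0.004. Slc36a1 (PAT1), which takes small neutral amino acids out of lysosomes, averaged 10.33 ± 0.09 in HFD and 10.35 ± 0.19 in RD (SD, n = 3 each).

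Of the 3 SLC43 genes 1 fell. Slc43a1 (LAT3) encodes a facilitated carrier of leucine and other large neutral amino acids, known from liver. Its signals (probe set 10473367) were 8.21, 8.25 and 8.09 in HFD, against 8.84, 9.40 and 9.21 in RD. The RD values were more spread than the HFD values, and the highest HFD value was still below the lowest of RD. Slc43a1 fell by 0.97 ± 0.13 on the log2 scale, or 1.96-fold lower, the largest difference of any member in the fit of all 6 arrays (limma adjusted p = 0.00668). With 1 array left out its difference ran from -1.13 to -0.84 and the adjusted p from 0.00317 to 0.0295. The related Slc43a2 (LAT4) averaged 8.65 ± 0.14 in HFD and 8.73 ± 0.11 in RD (SD, n = 3 each) and overlapped (limma adjusted p = 0.690). Slc43a3, which lies on chromosome 2 with 1 protein coding gene between it and Slc43a1 and is named for its position, differed by -0.03 ± 0.07.

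The 31 members outside the rule for naming genes gave 0 calls in limma, as the rule requires. Their differences lay between -0.18 and 0.10, with 9 positive and 22 negative. Where 25.7% of all genes showed no overlap, the groups were separate for 3 of the 31 members, or 9.68%. The rule had taken out every member with an unadjusted p under 0.05, which lowers this share. It therefore cannot be compared with that of all genes. Their mean signals ran from 4.05 to 11.94, and without detection calls a gene that is silent in liver cannot be told from one whose expression was equal.

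Other genes of amino acid handling were counted from lists not chosen by how they moved, though earlier results of these data were known. In the list of 9 other plasma membrane, lysosomal and peptide carriers, 2 rose (22.2%) and 0 fell. Among all genes 3.11% rose and 2.24% fell. Slc15a3, a lysosomal peptide and histidine transporter of immune cells, had 9.20, 8.92 and 8.96 in HFD, against 8.43, 8.38 and 8.48 in RD. It rose by 0.60 ± 0.09 (limma adjusted p = 0.00813), and the related Slc15a4 by 0.40 ± 0.08 (adjusted p = 0.0332). Slc15a3 passed with any 1 array left out, while Slc15a4 was lost in all but the fit without HFD replicate 2. The rises of 4 of the 8 Kupffer cell markers stand beside these values too, and their part was not tested.

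Of 9 mitochondrial amino acid carriers of SLC25, 0 passed in limma. An unadjusted p under 0.05 was reached by 4, or 44.4%, where 19.7% of all genes reached it. The difference was negative for 7 of the 9, with a median of -0.16, and for 10133 of all 19938 genes. The smallest p values were those of the glutamate carrier Slc25a22, at -0.34 ± 0.10 (limma adjusted p = 0.0936), and the aspartate and glutamate carrier Slc25a13 (citrin), at -0.23 ± 0.07 (adjusted p = 0.0946). Both lay lower in every HFD array than in any RD array. With an intensity trend 3 of the 9 fell, Slc25a13 (adjusted p = 0.0254), Slc25a22 (0.0424) and Slc25a44 (0.0441). Over all genes 615 fell in that setting (3.08%), against 446 in the main fit. Slc25a13 also passed among the brighter genes (adjusted p = 0.0398) and Slc25a22 without HFD replicate 3 (adjusted p = 0.0468).

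Enzymes of glutamine, glutamate and alanine metabolism gave 3 falls among the 6 measured, where 2.24% of all genes fell. All 6 differences were negative, that of Glud1 being only -0.002. The aspartate transaminase Got1 had 12.43, 12.34 and 12.48 in HFD, against 13.22, 13.56 and 13.45 in RD, and was 1.99-fold lower in HFD (limma adjusted p = 0.00115). The alanine transaminase Gpt2 fell by 0.39 ± 0.07 (adjusted p = 0.0174) and the glutamine synthetase Glul by 0.33 ± 0.07 (adjusted p = 0.0361). Glul did not pass as the mean of its probe sets (-0.29 ± 0.07, adjusted p = 0.0578), nor with any 1 array left out (adjusted p of 0.0587 to 0.128). Gpt2 passed without HFD replicate 3 (adjusted p = 0.0260) and in no other fit that left out 1 array, where Got1 passed in all 6.

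None of 13 regulators of the amino acid response and of amino acid sensing passed in limma. Beside 19.7% of all genes, 7.69% of them had an unadjusted p under 0.05, which was 1 gene. That gene was Cebpg, a partner of ATF4, at 0.28 ± 0.10 (limma adjusted p = 0.182), followed by Castor2 at -0.24 ± 0.12 (adjusted p = 0.316). Their HFD and RD values overlapped.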

How the data were processed

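Liver RNA of 6 samples was measured on 6 arrays, labelled with a GeneChip kit, per the labels. The authors deposited 1 log2 signal for each of 35512 probe sets and array, from 2.28 to 14.86; the summarisation and the normalization between arrays are unknown here, and base 2 was inferred from the range. Array medians were 7.06 to 7.11, and r between arrays across genes was 0.996 to 0.997 within a diet. The number of arrays limits the precision, and no detection calls or batches were used.

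Probe sets with 1 symbol (21789) were named by the platform annotation, and 12102 unlisted and 1621 with several symbols were left out. The model of limma 3.58.1 (R 4.3.3; lmFit, eBayes, two-sided) held diet as its only term, and p-values were adjusted over 19938 genes, with no filter on dim genes. The steps were tested on simulated data. Named genes are members with an adjusted or unadjusted p under 0.05, members with a known place in liver, and from each list those that passed or the smallest p. Members and lists were chosen with earlier results of these data known. Alternatives were quantile normalization, median centring, brighter genes, mean of probe sets, intensity trend, replicate block, a 1.5-fold threshold and each array left out. The p-values measure the spread between these samples. Protein sequences were not used here.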

Additional observations from a re-analysis of the deposited data

How the results depend on the processing

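Of 330 refits of the 28 named members, 281 kept their direction and their side of an adjusted p of 0.05. A call was lost in 32 and gained in 8, and 9 turned sign, of which 0 concerned a called gene. Only members called in the main fit could lose a call, so all 32 losses fell on their refits. The 281 include refits of members that were not called. The risers numbered 3 with a change of at least 1.5-fold required, and between 2 and 4 with 1 array left out; they were 8 after quantile normalization, 10 of 26 members tested among the brighter genes and 9 with an intensity trend. The rises over all genes, 621, were 208 with the 1.5-fold threshold, 197 to 371 with 1 array left out, 648 after quantile normalization, 862 of 9969 among the brighter genes and 850 with the trend. Falls numbered 1 with the 1.5-fold threshold and 2 to 3 with 1 array left out, against 151 and 178 to 273 over all genes. With the intensity trend 4 members fell, against 615 of all genes. Calls in the lists of other genes, 5 in all, were 9 with the intensity trend, 2 with the 1.5-fold threshold and 2 to 4 with 1 array left out.

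With the replicate number as a block 4 members rose, 2 fell and 2 genes of the other lists passed; the calls lost with it were those of Slc3a1, Slc6a9, Slc6a13 and Slc6a16. The numbers share no stated source, and deviations of same-numbered arrays correlated at -0.107, 0 and 0.117, so they were not treated as pairs. The block over all genes gave 318 higher and 245 lower, against 621 and 446 without it.

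Differences that turned sign were all near 0. With 1 array left out they spanned -0.056 (without HFD replicate 1) to 0.19 for Slc1a5, -0.11 to 0.082 (without RD replicate 2) for Slc36a1, -0.0097 (without RD replicate 3) to 0.0785 for Slc38a2, -0.15 (without RD replicate 3) to 0.16 for Slc7a6, and -0.0044 (without HFD replicate 3) to 0.0706 for Slc7a9. Slc7a6 also turned to -0.01 after median centring. The cause was not tested, and 3 arrays per diet limit all calls.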
